A study of Mus musculus with 6 samples.

Results

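The Gimap genes encode GTPases of the immunity-associated protein family, and the 8 mouse members Gimap1, Gimap3, Gimap4, Gimap5, Gimap6, Gimap7, Gimap8 and Gimap9 were followed across the cells of B16F10 melanoma tumors. All 8 were found by symbol among the 32285 genes of the deposited count matrices. They were chosen by name and not by a measured value, although earlier results of these data were known. Single-cell RNA-Seq had been run on tumors of female C57BL/6 mice (aged 6 to 10 weeks) injected with B16F10, a mouse melanoma cell line. In the αPD-1 group (n = 3 samples), mice received antibody against PD-1, an inhibitory receptor of T cells, at 150 µg per mouse 3 times a week from day 7. In the αPD-1 + corin group (n = 3 samples), they received the same antibody and 200 µg of corin daily from day 6. Corin inhibits the LSD1 demethylase and the histone deacetylase of the CoREST repressor complex, so the design measured what corin added to αPD-1, and no sample without αPD-1 was analysed here. Each arm held 10 mice, but which mouse or mice gave each sample was not stated, so all p-values measure the spread between these samples.

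GIMAP proteins are GTP-binding proteins that sit on or near intracellular membranes of lymphocytes and are best known for keeping resting lymphocytes alive. Loss of Gimap5 in mice and rats depletes peripheral T cells, loss of Gimap1 depletes mature B and T cells, and Gimap6 has been tied to autophagy through its binding to a GABARAP protein. Gimap4 has been linked to the death program of T cells, Gimap3 and Gimap5 to the BCL-2 family, and Gimap8 differs from the rest by carrying several GTP-binding domains in one protein.

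The 8 genes lay next to each other on chromosome 6 (GRCm39 chr6:48624143-48747826, GENCODE M39), within 123.7 kb. Gimap8, Gimap9, Gimap4, Gimap7, Gimap1 and Gimap5 were annotated on the plus strand and Gimap6 and Gimap3 on the minus strand. The antisense gene Gimap1os overlapped Gimap1 by 2432 bases. A read-through gene, Gm28053, spans Gimap7 to Gimap5 in that annotation, and it was not among the genes counted. Gimap1os gave far fewer UMIs (unique molecular identifiers, each standing for 1 captured RNA molecule) than Gimap1, for example 67 against 577 in effector-like T cells. Gimap3 and Gimap5 were the closest pair, with 90.4% of 895 aligned coding bases identical, and the next closest pair, Gimap7 and Gimap8, reached 73.9%. The longest stretch shared by the canonical Gimap3 and Gimap5 transcripts was 140 coding bases, and 2.43% of the 90-base windows of Gimap3 and 2.70% of those of Gimap5 occurred in the other gene. For the other 6 members no 90-base window of the canonical transcript was shared, and other isoforms and stretches that match with mismatches were not examined.

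**Figure D1:**
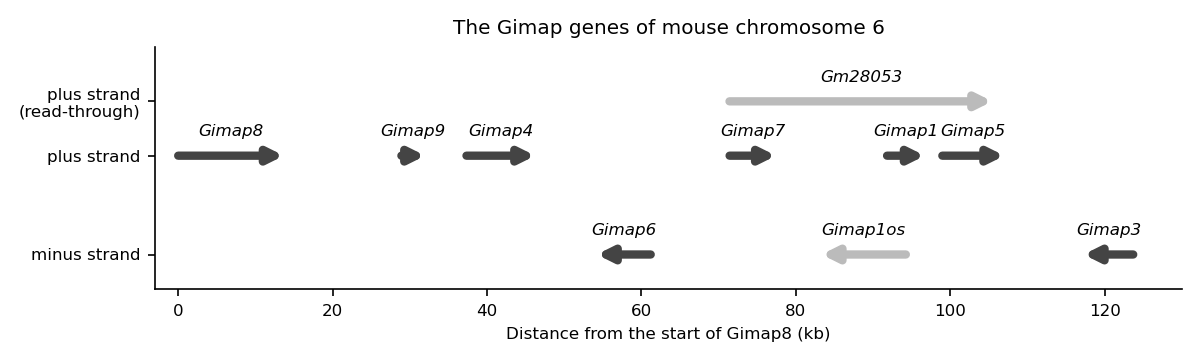
Map of the Gimap genes on chromosome 6, with distance from the start of Gimap8 in kilobases on the horizontal axis and strand on the vertical axis. Dark arrows are the 8 members, running from gene start to gene end, and grey arrows are Gimap1os and the read-through gene Gm28053. The members cover 123.7 kb.

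The 250 bases upstream of the annotated start are printed for 4 members, since Gimap4 and Gimap6 were detected in endothelial-like cells of these tumors and Gimap3 and Gimap7 were at or near 0 there. Capitals mark the RUNX-type motif TGTGGT on either strand. The ETS-type motif GGAAGT was also searched on both strands and was in none of these 4 windows.
Gimap4 (GRCm39, chr6:48661229-48661478, plus strand): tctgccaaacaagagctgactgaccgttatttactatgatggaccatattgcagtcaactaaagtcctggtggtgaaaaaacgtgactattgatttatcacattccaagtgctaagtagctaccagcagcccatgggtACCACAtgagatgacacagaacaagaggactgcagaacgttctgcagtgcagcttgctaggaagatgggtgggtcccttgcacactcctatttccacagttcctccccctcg
Gimap6 (GRCm39, chr6:48685319-48685568, minus strand): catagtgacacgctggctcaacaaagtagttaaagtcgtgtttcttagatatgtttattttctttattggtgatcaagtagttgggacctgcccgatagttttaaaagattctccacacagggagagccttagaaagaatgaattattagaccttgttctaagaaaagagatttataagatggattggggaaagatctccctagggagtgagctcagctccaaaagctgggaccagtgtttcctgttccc
Gimap3 (GRCm39, chr6:48747827-48748076, minus strand): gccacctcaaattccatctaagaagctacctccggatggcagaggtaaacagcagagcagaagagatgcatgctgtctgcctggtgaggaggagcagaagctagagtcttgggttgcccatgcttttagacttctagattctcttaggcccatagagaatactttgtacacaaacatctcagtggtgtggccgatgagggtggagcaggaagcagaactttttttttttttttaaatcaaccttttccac
Gimap7 (GRCm39, chr6:48695305-48695554, plus strand): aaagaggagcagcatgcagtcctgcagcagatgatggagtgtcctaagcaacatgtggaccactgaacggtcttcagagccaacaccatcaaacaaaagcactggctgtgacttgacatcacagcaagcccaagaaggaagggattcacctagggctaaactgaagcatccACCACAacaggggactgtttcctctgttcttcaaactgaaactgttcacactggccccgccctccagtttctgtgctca
Gimap4 held 1 RUNX-type match, 112 bases before the start, and Gimap7 held 1, 79 bases before it. Neither Gimap3 nor Gimap6 held one, so the presence of these letters did not follow the endothelial values. Among the other members, Gimap1 held 2 RUNX-type matches and Gimap5 held 2 ETS-type matches. Of 21770 windows of the same length before protein-coding genes, 13.0% held the RUNX-type letters and 19.0% the ETS-type letters.

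The 28865 cells kept of 52899 deposited barcodes were clustered and named from marker lists, with the markers and the Gimap genes left out of the clustering. The T cells (3444) were divided into Tn-like (naive-like, 1082 cells), CTL-like (effector, 787), Treg-like (Foxp3-positive regulatory type, 153), Tcyc-like (cycling, 373) and unnamed T clusters (1049). The other classes used most were NK-like (486 cells), B-like (2657) and endothelial-like cells (166). Before loading, cells carrying CD45, a surface protein of leukocytes, had been isolated with magnetic beads, so the endothelial-like, fibroblast-like (989) and melanoma-like (1883) cells are of kinds that this step should remove. Ptprc, the gene of CD45, had a UMI in 10.2% of endothelial-like cells, against 92.6 to 96.5% of Treg-like cells in the groups. Libraries held 52281422 to 84276739 UMIs, and pairs of libraries shared 10 to 32 cell barcodes, at most 0.457% of the smaller library. All markers of its own list were detected in each T class. The endothelial-like cluster also held cells with Rgs5, a pericyte gene, and these are treated separately where they bear on a value. A level is given as CPM, the UMIs of a gene scaled to counts per 1000000 UMIs of all genes in that class and sample, over samples with at least 10 cells of the class. CPM values were compared between classes and samples and not between genes. Only 33 Tn-like cells came from the αPD-1 + corin samples, and 1 of those samples (5 cells) was left out of the Tn-like values.

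Taken as a sum, the 8 genes were highest in Treg-like and NK-like cells. The summed level was 2445 ± 303 CPM in Treg-like cells and 2316 ± 280 CPM in NK-like cells (SD, n = 6). It was 1450 ± 87.2 CPM in Tn-like cells (SD, n = 5), 1414 ± 355 CPM in CTL-like cells, 1340 ± 235 CPM in B-like cells and 1186 ± 103 CPM in Tcyc-like cells (SD, n = 6). Every Treg-like sample (2129 to 3009 CPM) lay above every CTL-like (1137 to 2105 CPM), Tn-like, B-like and Tcyc-like sample, while Treg-like cells overlapped with NK-like cells and with the unnamed T clusters, whose sum was 1965 ± 147 CPM (1849 to 2202 CPM, SD, n = 6). The same sum was 537 ± 82.5 CPM in endothelial-like, 184 ± 53.4 CPM in dendritic-like, 58.9 ± 15.4 CPM in monocyte/macrophage-like and 15.6 ± 4.88 CPM in melanoma-like cells (SD, n = 6). The melanoma-like value gives the level measured in cells outside the lymphocyte classes. Gimap9 made up 43.2% of the Gimap UMIs of these cells, so their sum is not a plain background level. Neutrophil-like cells showed 476 ± 199 CPM (SD, n = 6), and the same cells held Cd3e at 102 CPM and Cd3d at 148 CPM, against 2.11 and 3.86 CPM in melanoma-like cells. NK-like cells held Cd3e at 116 CPM and Cd3d at 221 CPM, against 441 and 577 CPM in Tn-like cells. The part of these T cell transcripts in the neutrophil-like and NK-like Gimap values was not tested. These class differences are descriptions, since the clusters came from the same cells.

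**Figure D2:**
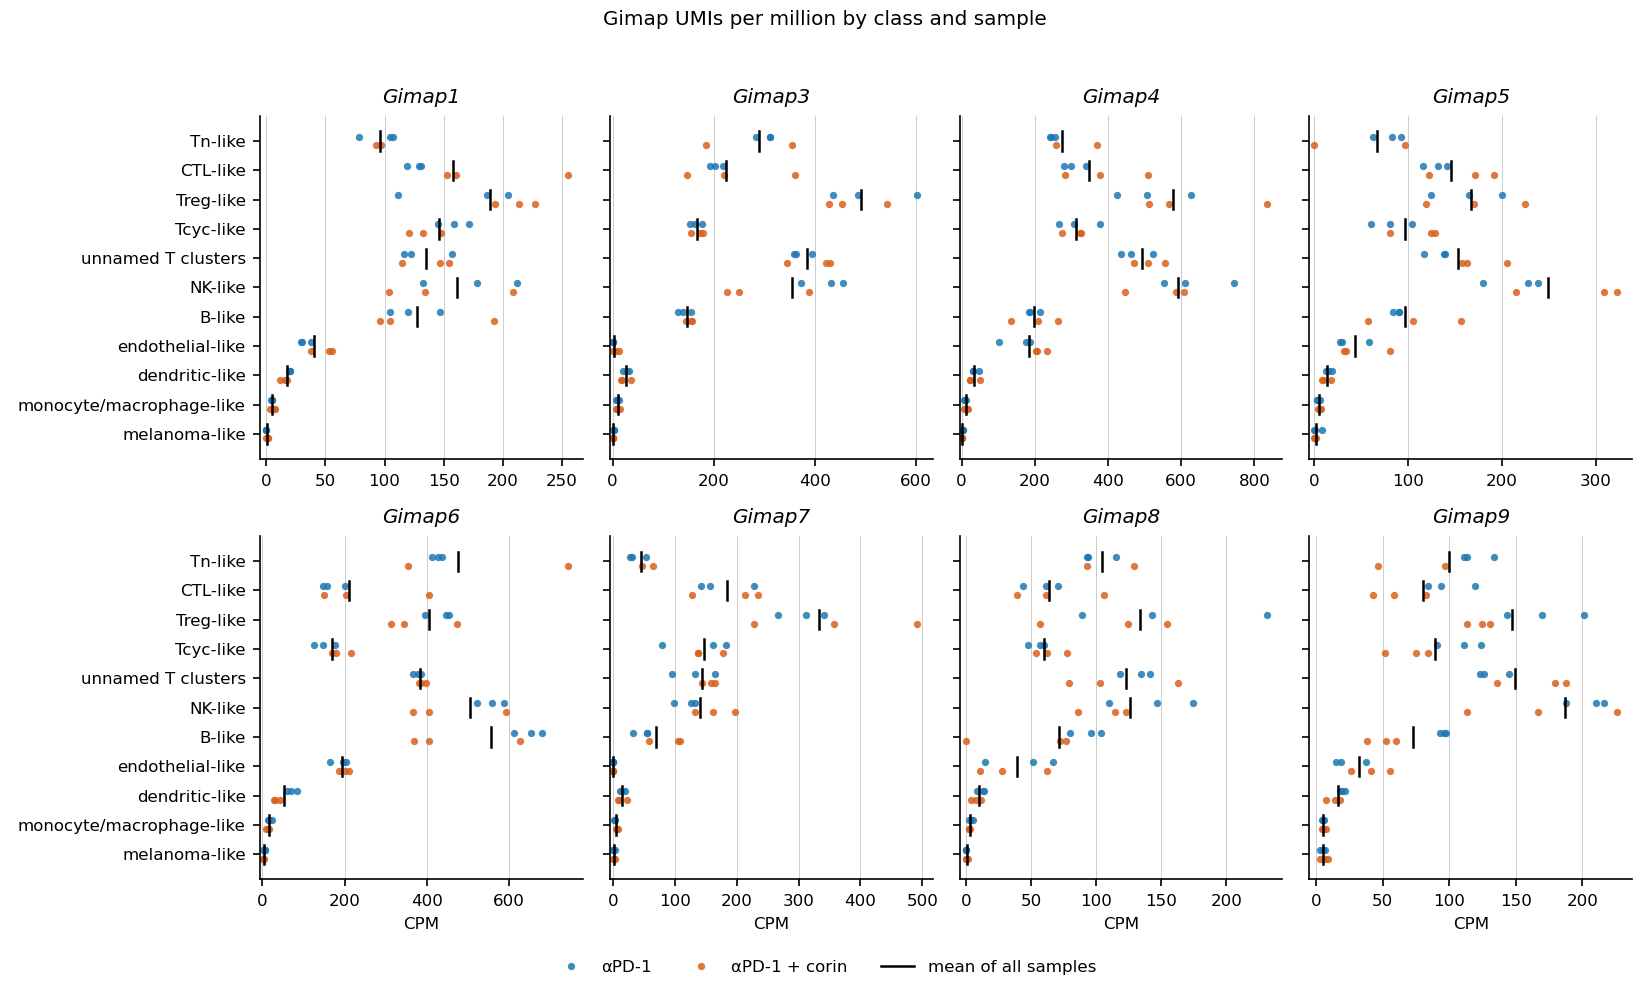
Level of each Gimap gene (CPM, horizontal axis, a separate scale for each gene) by class, with 1 point per sample and a line at the mean of all samples, for classes with at least 10 cells in that sample. Gimap7 had no UMI in endothelial-like cells and was lower in Tn-like than in Treg-like cells in all 5 samples, and Gimap6 had its highest mean in B-like cells.

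Gimap7, whose protein hydrolyzes GTP as a dimer, varied most between T cell classes. In Treg-like cells its lowest, median and highest samples were 227, 327 and 492 CPM. CTL-like cells followed with 128, 185 and 234 CPM. Tn-like cells held only 27.4, 46.4 and 64.4 CPM over 5 samples. All 5 Tn-like values were below all values of CTL-like, Treg-like, Tcyc-like, NK-like and unnamed T clusters. Tcyc-like, unnamed T and NK-like cells, at means of 146, 143 and 141 CPM, overlapped with each other and with CTL-like cells.

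Gimap3, a close relative of Gimap5, was likewise highest in Treg-like cells, with a lowest, median and highest sample of 428, 469 and 602 CPM. Tn-like cells, unlike for Gimap7, came above B-like cells, at 185, 310 and 354 CPM against 129, 149 and 157 CPM. The order of the means ran from Treg-like through unnamed T, NK-like, Tn-like, CTL-like and Tcyc-like to B-like cells, and each neighbouring pair in it overlapped.

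Gimap5, the member required for T cell survival, had its highest mean in NK-like cells, at 249 ± 55.6 CPM, followed by Treg-like cells at 167 ± 41.3 CPM (SD, n = 6). Tn-like cells were low, at 67.1 ± 39.7 CPM (SD, n = 5), and 1 of their 5 samples, with 11 cells, had no UMI. Gimap4 was at 592 ± 96.4 CPM in NK-like and 579 ± 143 CPM in Treg-like cells (SD, n = 6), which overlapped. Gimap4 fell in the order through unnamed T (493 CPM), CTL-like (349 CPM), Tcyc-like (313 CPM), Tn-like (274 CPM) and B-like (199 CPM), and no neighbours in this order were apart in all samples. Gimap1, needed for mature B and T cells, ranged from 190 ± 40.9 CPM in Treg-like cells (SD, n = 6) to 95.8 ± 11.4 CPM in Tn-like cells (SD, n = 5). All 5 Tn-like values of Gimap1 were below those of CTL-like cells in the same samples. In the larger Tn-like cluster alone, αPD-1 replicate 1 had 126 CPM of Gimap1, above the 119 CPM of its CTL-like cells.

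Gimap6, the member tied to autophagy, showed a different order. B-like cells had its highest mean, with a lowest, median and highest sample of 367, 619 and 679 CPM. NK-like cells (505 ± 96.7 CPM, SD, n = 6) and Tn-like cells (475 ± 153 CPM, SD, n = 5) overlapped with them. In the αPD-1 samples alone, B-like cells (613 to 679 CPM) lay above NK-like (522 to 588 CPM) and Tn-like cells (413 to 437 CPM). The 2 lowest B-like values, 405 and 367 CPM, came from αPD-1 + corin samples with 21 and 7 Gimap6 UMIs. The highest Tn-like value, 742 CPM, came from an αPD-1 + corin sample with 16. CTL-like and Tcyc-like cells were low, at 211 ± 98.0 and 169 ± 30.5 CPM (SD, n = 6). Gimap6 made up 45.2% of the Gimap UMIs of B-like cells and 30.1% of those of Tn-like cells, against 14.1% in CTL-like and 13.8% in Tcyc-like cells. Gimap7 went the other way, from 2.77% in Tn-like and 3.42% in B-like cells to 14.5% in CTL-like and 14.2% in Treg-like cells.

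Gimap8 and Gimap9 had their highest means in Treg-like and NK-like cells. Gimap8 ranged from 133 ± 60.1 CPM in Treg-like to 59.7 ± 10.1 CPM in Tcyc-like cells, and Gimap9 from 187 ± 41.9 CPM in NK-like to 73.0 ± 25.8 CPM in B-like cells (SD, n = 6).

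**Figure D3:**
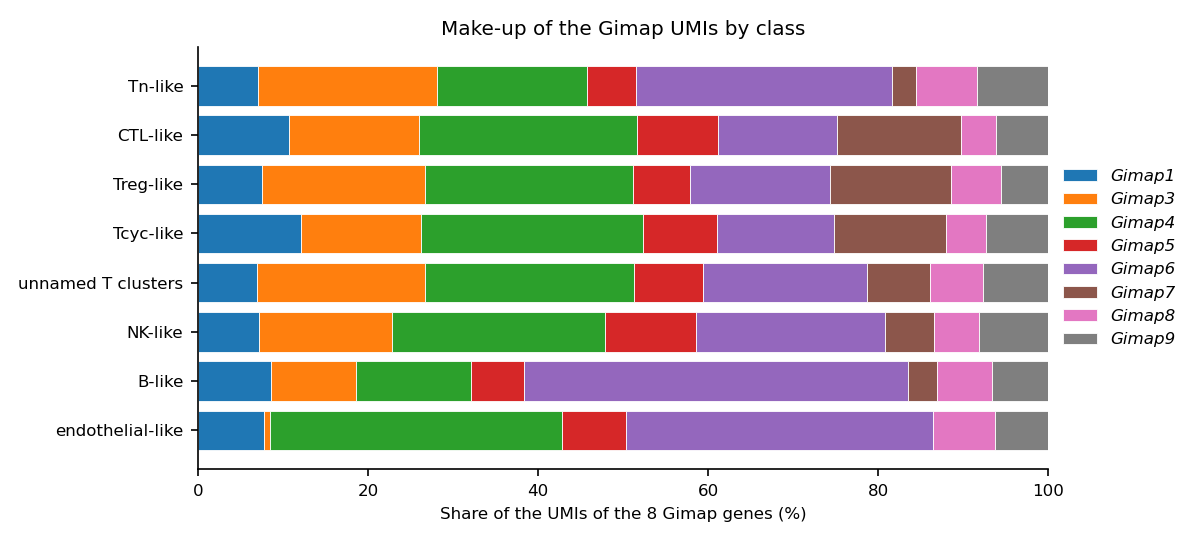
Share of the UMIs of the 8 Gimap genes (percent, horizontal axis) that came from each gene in 8 classes (1 bar each), summed over the samples with at least 10 cells. Gimap6 takes 45.2% in B-like cells, Gimap7 grows from 2.77% in Tn-like to 14.5% in CTL-like cells, and endothelial-like cells have no Gimap7.

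Endothelial cells line the vessels of the tumor, and 7 of the 8 members were detected in the endothelial-like cluster. Gimap4 was at 184 ± 44.5 CPM and Gimap6 at 193 ± 16.7 CPM (SD, n = 6). The Gimap6 mean lay within the range of the lymphocyte class means (169 to 557 CPM), and the Gimap4 mean lay below the lowest of them (199 CPM in B-like cells), with samples that overlapped. Gimap1, Gimap5, Gimap8 and Gimap9 lay between 32.4 and 43.9 CPM on average. Gimap3 gave 4 UMIs and Gimap7 gave 0 among 1056747 UMIs, and a count of 0 allows up to 2.84 CPM (3 counts, counting error only). For 100 Gimap4 UMIs the cluster held 0 Gimap7 and 2.05 Gimap3 UMIs, while the T, NK-like and B-like classes held 15.7 to 58.2 Gimap7 and 53.8 to 120 Gimap3 UMIs. Gimap3 and Gimap7 were thus far below the proportion they had in every lymphocyte class.

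Within this cluster the 2 main members followed the endothelial markers, in a split of the cells that was chosen after the data were examined. Of 103 cells with a UMI of Pecam1 or Cdh5, which encode adhesion proteins of endothelium, 68.0% (exact 95% interval 58.0 to 76.8%) had a Gimap4 UMI and 69.9% (60.1 to 78.6%) a Gimap6 UMI. Of 60 cells with a Rgs5 UMI and neither Pecam1 nor Cdh5, 3.33% (0.406 to 11.5%) had a Gimap4 UMI and 13.3% (5.94 to 24.6%) a Gimap6 UMI. Median depths were close, at 6071 and 6067 UMIs per cell. Pecam1 is not particular to endothelium here, with a UMI in 40.1% of B-like and 31.1% of Tn-like cells of the αPD-1 samples, against 0.273% and 0% for Cdh5. Ptprc had a UMI in 12.6% of the 103 cells and 5.0% of the 60 Rgs5 cells. Of the 103 cells, 2.91% had a UMI of Cd3e, 3.88% of Cd3d and 1.94% of Cd79a. In melanoma-like cells, which should lack both genes, 0.797% and 0.956% had a Gimap4 or a Gimap6 UMI at a median of 4613 UMIs. In the 155 cells of the cluster without a UMI of the lymphocyte genes Cd3e, Cd3d and Cd79a, Gimap4 stayed at 180 CPM and Gimap6 at 195 CPM, and both Gimap3 and Gimap7 had no UMI. Gimap1, Gimap5 and Gimap8 were at 67.0, 62.4 and 62.4 CPM in the cells with Pecam1 or Cdh5. In the 60 Rgs5 cells these 3 were at 0, 2.56 and 0 CPM. Gimap9 did not follow the markers. In the cells with Pecam1 or Cdh5 it was at 35.0 CPM (95% Poisson interval 22.2 to 52.5 CPM). In the Rgs5 cells it was at 33.3 CPM (17.7 to 57.0 CPM). Between treatments, where 0.115% of 3479 genes were called, only Gimap4 and Gimap6 passed the filter on low counts in this cluster, with log2 fold changes of 0.55 (SE 0.29, adjusted p = 0.314, edgeR) and 0.11 (SE 0.26, adjusted p = 0.864, edgeR).

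The comparison of αPD-1 + corin with αPD-1 asked what corin added, first over all T cells of a sample. Here 3 of the 8 members rose with corin, none fell and 5 did not pass the test (edgeR's quasi-likelihood test, adjusted p under 0.05 over 9497 genes). Of all genes tested in these T cells, 21.4% were called, 8.90% higher and 12.5% lower with corin. The median log2 fold change was 0.17 over the 8 members and 0.02 over all genes, and the members ranged from -0.24 to 0.76.

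Gimap7 changed most. The 3 αPD-1 samples had 89.6, 150 and 101 CPM and the 3 αPD-1 + corin samples 159, 186 and 197 CPM, and the groups did not overlap. Its log2 fold change was 0.76 (SE 0.19, adjusted p = 0.00988, edgeR). Gimap5 went from 94.4, 116 and 108 CPM to 151, 144 and 136 CPM, again without overlap, with a log2 fold change of 0.49 (SE 0.14, adjusted p = 0.0207, edgeR). Gimap1 went from 125, 123 and 126 CPM to 154, 153 and 151 CPM, with a log2 fold change of 0.37 (SE 0.12, adjusted p = 0.0477, edgeR). These 3 genes were the ones that passed.

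Gimap4 also separated the groups, with 312, 352 and 336 CPM in αPD-1 and 432, 431 and 379 CPM in αPD-1 + corin, but just missed the threshold (log2 fold change 0.38, SE 0.13, adjusted p = 0.0547, edgeR). Gimap8 (-0.24, SE 0.14, adjusted p = 0.245, edgeR) and Gimap9 (-0.19, SE 0.13, adjusted p = 0.328, edgeR) had log2 fold changes below 0, and their CPM values were lower in all corin samples. Gimap9 was at 130, 112 and 113 CPM with αPD-1 and at 89.8, 97.7 and 101 CPM with αPD-1 + corin. Gimap6 (-0.19, SE 0.15) and Gimap3 (-0.03, SE 0.13) had values that overlapped between the groups. In all, 6 of 8 members did not overlap, and 37.8% of all genes with at least 100 UMIs in these T cells did not overlap either. With DESeq2 the call of Gimap7 was left, and without αPD-1 replicate 1 or αPD-1 replicate 3 none was. The call of Gimap1 was lost whichever sample was left out. When clusters that also held B cell or monocyte/macrophage markers were counted as T cells (an alternative chosen after seeing the data), Gimap6 (-0.63, adjusted p = 0.00338, edgeR) and Gimap8 (-0.32, adjusted p = 0.0484, edgeR) passed as lower with corin, beside Gimap7 and Gimap5 as higher.

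**Figure D4:**
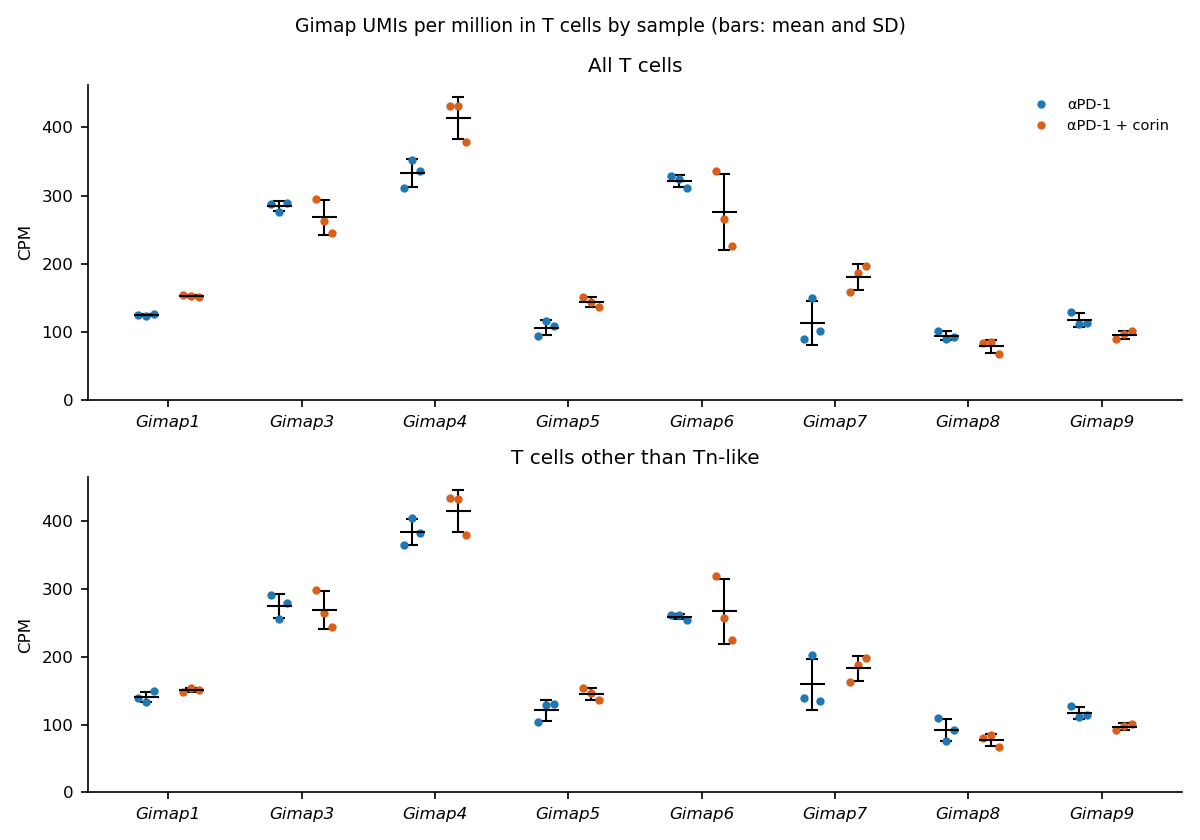
Level of the 8 Gimap genes (CPM, vertical axis) in all T cells of a sample (upper panel) and in T cells other than Tn-like (lower panel), with 1 point per sample (n = 3 per group), the mean and the SD. In the upper panel the αPD-1 + corin samples of Gimap7 (159 to 197 CPM) lie above those of αPD-1 (89.6 to 150 CPM), and in the lower panel the groups overlap for Gimap7.

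The make-up of the T cells differed between the groups at the same time. Tn-like cells had the lowest mean of the T cell classes for Gimap7, Gimap5 and Gimap1. For Gimap5 they overlapped with Tcyc-like cells, and the means were 79.6 and 81.9 CPM in αPD-1 samples. Tn-like cells were 47.4 to 60.6% of the T cells in αPD-1 samples and 1.59 to 4.26% in αPD-1 + corin samples. Of the 1082 Tn-like cells, 342 lay in a cluster with 2.25% of its UMIs from Malat1, a nuclear RNA, and 3.70% from ribosomal protein genes, against 0.862% and 28.0% in the other Tn-like cluster. The Gimap sum was lower in that cluster, at 1067 against 1545 CPM, and Gimap8 was the member that was higher there, at 123 against 96.4 CPM. Gimap1 was at 51.8 against 117 CPM. Without these cells and a like cluster of 167 cells, Gimap7 alone passed over all T cells (0.56, adjusted p = 0.0454, edgeR). To set the shares beside the change, each class was held at its pooled αPD-1 level and combined in the UMI shares of each sample. For αPD-1 the result is near the measured level by construction, since the class levels came from those samples. The mean Gimap7 level obtained in this way was 119 CPM for αPD-1 and 170 CPM for αPD-1 + corin, against 113 and 181 CPM measured. For Gimap1 the shares alone gave 124 and 142 CPM, against 125 and 153 CPM measured, and for Gimap4 336 and 374 CPM, against 333 and 414 CPM. For Gimap6 they gave 324 and 247 CPM, against 321 and 276 CPM measured. For Gimap5 they gave 107 and 118 CPM, against 106 and 144 CPM, and for Gimap9 118 and 115 CPM, against 118 and 96.1 CPM. The difference given by the shares alone was smaller than the measured one for Gimap1, Gimap4, Gimap5, Gimap7, Gimap8 and Gimap9 and larger for Gimap3 and Gimap6. These are descriptions, and the part of the shares in the change was not tested.

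In T cells other than Tn-like, 0 of 8 members passed the test (edgeR, with 1 at an unadjusted p under 0.05, and 0 with DESeq2), where 0.0936% of 8543 genes were called. Log2 fold changes ranged from -0.20 (Gimap8) to 0.32 (Gimap5, SE 0.14, adjusted p = 0.412, edgeR), with a median of 0.13 over the members and 0.0031 over all genes. Gimap7 was at 140, 203 and 135 CPM with αPD-1 and at 163, 189 and 198 CPM with αPD-1 + corin, and these overlapped (log2 fold change 0.29, SE 0.17, adjusted p = 0.582, edgeR). Gimap5 was at 103, 129 and 130 CPM against 154, 147 and 136 CPM, and Gimap9 was at 127, 111 and 114 CPM against 91.7, 98.7 and 101 CPM. These were the 2 of 8 members that did not overlap, where 17.6% of all genes with at least 100 UMIs did not either. The counts moved with the clustering, which changed the T cell set as well as the Tn-like class: 906 genes were called at a higher clustering resolution and 658 with log-normalized values for clustering, and Gimap4 passed in both (log2 fold changes 0.50 and 0.52).

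No member passed within a single class either. None of the 8 members had an unadjusted p under 0.05 in CTL-like, Treg-like, Tcyc-like, Tn-like, NK-like or B-like cells (edgeR), and none passed with DESeq2. The genes called there were few too, at 0% of 4930 genes in CTL-like, 0.0641% of 1560 in Treg-like, 0.02% of 4996 in Tcyc-like, 0.0456% of 6580 in Tn-like, 0.502% of 3189 in NK-like and 2.01% of 7995 in B-like cells. Standard errors of the members were 0.20 to 0.29 in CTL-like, 0.19 to 0.27 in NK-like and 0.18 to 0.27 in Tcyc-like cells. They were 0.25 to 0.39 in Treg-like and 0.22 to 0.50 in B-like cells. In Tn-like cells, where 1 of the 3 corin samples was left out, they were 0.36 to 0.97. Changes of the size seen over all T cells were therefore not detectable in Tn-like cells at this depth. The smaller of those changes could be missed in the other classes too, so a member that did not pass there is not shown to be unchanged.

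**Figure D5:**
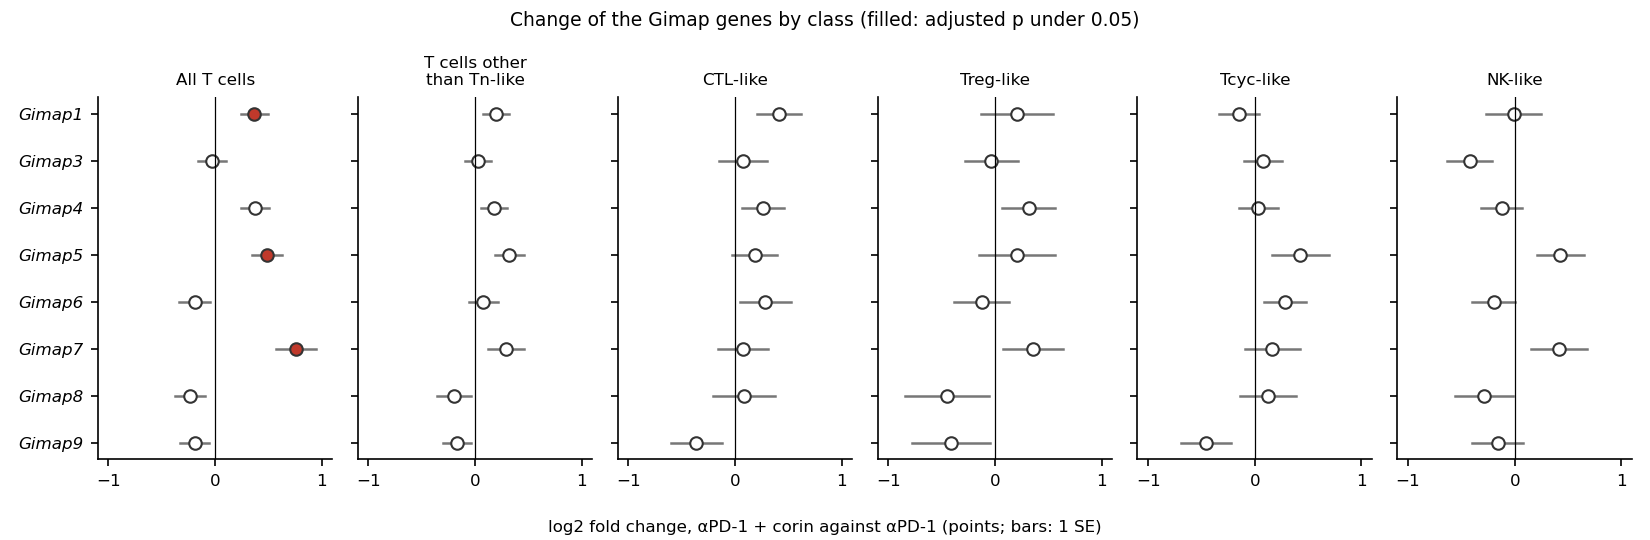
Log2 fold change of αPD-1 + corin against αPD-1 (horizontal axis, points) with 1 SE on each side (bars) for the 8 Gimap genes in 6 sets of cells, with filled points for adjusted p under 0.05 (edgeR). The filled points are Gimap1, Gimap5 and Gimap7 in all T cells, and all Gimap9 points lie left of 0.

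The sign of the change in the 6 single lymphocyte classes (Tn-like, CTL-like, Treg-like, Tcyc-like, NK-like and B-like) differed between members. Gimap9 was below 0 in 6 of 6 classes (log2 fold changes -0.95 to -0.16). Its CPM values did not overlap between the groups in 5 of 6. In NK-like cells, however, it was above 0 with log-normalized values (0.088) and with 2 other cell filters (0.036 and 0.097). In the unnamed T clusters, which are not among the 6, its mean was higher with corin (168 against 131 CPM), and the groups overlapped. In CTL-like cells Gimap9 was at 119, 93.5 and 83.8 CPM with αPD-1 and at 42.5, 58.3 and 82.8 CPM with αPD-1 + corin. In B-like cells it was at 97.6, 92.9 and 96.2 CPM and at 38.6, 60.1 and 52.5 CPM. The corin values rested on 2, 5 and 1 Gimap9 UMIs in B-like cells, and the lowest CTL-like one on 2. The corin samples were the lower ones in both classes, and the share of genes with at least 100 UMIs in the class that did not overlap was 9.82% in CTL-like, 28.1% in B-like, 38.4% in Tn-like, 9.57% in Treg-like, 12.9% in Tcyc-like and 17.8% in NK-like cells. Gimap9 had 76 UMIs in Treg-like cells and so was not itself among the genes counted there. In Tn-like cells its 2 corin values rested on 1 and 3 UMIs. Gimap7 was above 0 in 6 of 6 classes (0.07 to 0.85, and -0.044 in NK-like cells without an upper limit on detected genes). Its groups were apart in 1 of 6, B-like cells, where the corin values rested on 3, 9 and 2 Gimap7 UMIs. Leaving out a sample turned the sign of Gimap7 in Tn-like, CTL-like and Tcyc-like cells. Gimap5 and Gimap4 were above 0 in 5 of 6. The median log2 fold change over all genes was itself -0.42 in Tn-like and -0.21 in B-like cells, where the αPD-1 + corin sums held few UMIs (19065 to 83220 for B-like cells). In the other 4 classes it was near 0, and Gimap9 was at -0.36 (SE 0.24) in CTL-like, -0.41 (SE 0.36) in Treg-like, -0.46 (SE 0.24) in Tcyc-like and -0.16 (SE 0.24) in NK-like cells. The classes came from the same 6 samples, none of these values passed the test, and this pattern was noticed after the values were seen.

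Genes of lists related to GIMAP function were read beside the members in the same fits. The quiescence list overlaps the markers that named the Tn-like clusters, so its direction is not independent of the Tn-like share. The counts stand beside 8.90% of all 9497 genes called higher and 12.5% called lower in all T cells, with a median log2 fold change of 0.02. Of 16 genes of T cell quiescence and recirculation, 14 fell in all T cells and 2 did not pass (median log2 fold change -1.33). Lef1, a transcription factor of naive T cells, fell by 2.69 on the log2 scale (SE 0.19, adjusted p = 2.14e-06, edgeR) and Satb1, a chromatin organizer, by 2.11 (SE 0.18). Of 12 tested genes of the BCL-2 family, Bak1 (log2 fold change 0.85) and Bcl2a1d (0.96) were among 4 that rose, and Bcl2, which protects from cell death, was the 1 that fell (-1.49, SE 0.23). The median of this list was 0.28. Of 15 autophagy genes (median -0.06), 3 rose, among them Gabarapl1 (1.01, SE 0.26) and Sqstm1 (0.47, SE 0.14), and Atg10 (-1.07) and Atg7 (-0.91) fell. Gabarapl2, which encodes an ATG8 protein related to GABARAP and is named here after its values were seen, was the other autophagy gene that rose (0.41, SE 0.13, adjusted p = 0.0373, edgeR). In T cells other than Tn-like, no gene of the 3 lists passed (edgeR), where 0.0936% of all genes were called. This holds for the main clustering, in which 8 genes were called in that set. Other clusterings called 650 (resolution 0.4), 906 (resolution 1.2) and 658 genes (log-normalized values), and the lists are not given for those.

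Over the 80 sums per sample and class, the members' levels went together. Pearson correlations of log2 CPM between members ran from 0.70 (Gimap6 with Gimap7) to 0.94 (Gimap1 with Gimap6), and Gimap3 with Gimap7 reached 0.93. Gimap7 was the member least like the mean of the other 7 (r = 0.85) and Gimap1 the most like it (r = 0.95). Among 7098 other genes, the 10 most like the mean of the family were Elf1 (r = 0.93), Limd2, Shisa5, Sept1, Il2rg, Zdhhc18, Cd82, Ccdc88c, Acap1 and Cd2 (r = 0.88). Elf1 encodes an ETS-type transcription factor of lymphocytes, Il2rg the shared receptor chain of interleukin-2 and related cytokines, and Cd2 an adhesion receptor of T and NK cells. These sums share libraries and depth, and the correlations largely set lymphocytes apart from other cells, so they are given with no p.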

How the data were processed

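Single-cell 5′ libraries of 6 tumor samples, from which dead cells had been removed and CD45-positive cells isolated, were analysed. The authors deposited UMI counts per gene and cell barcode, made with Cell Ranger 8.0 per the submitters' notes, which also name Seurat 5.0.11 and GRCm39, and the deposited counts are not normalized. A barcode was retained when it showed between 600 and 4000 genes and no more than 10% of its UMIs were mitochondrial, and the cells with the highest Scrublet scores (scanpy 1.11.5) were removed as doublets, 2002 in all. Cells were clustered with SCTransform and Louvain clustering (Seurat 5.3.0, sctransform 0.4.2, 3000 variable genes, 20 components), without the marker and Gimap genes, and clusters were named from 3 or more markers by a rule set after the data were examined. The Gimap members and the gene lists were chosen with earlier results of these data known.

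For each class the UMI counts of a sample were added up, and sums of under 10 cells were left out. Treatments were compared with edgeR 4.0.16 (quasi-likelihood test, TMM scaling, filterByExpr, R 4.3.3) over all genes with Benjamini-Hochberg adjustment at 0.05. SE is the log2 fold change divided by the root of the F statistic. DESeq2 1.42.0, another scaling, no filter on low counts, other cell filters and clusterings, a replicate block and leaving out each sample were the alternatives. All members were named, with, in each list, the 2 genes of smallest p in each direction among those called, and the 10 genes most correlated with the family. Replicate numbers were not treated as pairs: same-numbered T cell sums correlated at 0.105, -0.014 and -0.076. Intervals and limits cover counting error only. Gene positions, transcripts and promoter windows were read from GRCm39 with GENCODE M39, in which 31674 of the 32285 deposited gene IDs were found. The fits were tested on simulated data in which 200 genes were changed 4-fold, a larger change than that of any member over all T cells. In T cells 195 were recovered with 11 false calls, and in CTL-like cells 194 with 21.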

Additional observations from a re-analysis of the deposited data

How the results depend on the processing

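In all T cells the count of members that passed (3) was 1 with DESeq2, 1 among T cells that had a Cd3e UMI and 1 without the T clusters high in Malat1 (an alternative chosen after seeing the data), and it was Gimap7 each time. Gimap4 passed as higher at clustering resolution 1.2, with log-normalized values and with no upper limit on genes (4 members each), at 5% mitochondrial UMIs (2 members) and without αPD-1 replicate 2. With mixed clusters counted as T cells 2 members passed as higher and 2, Gimap6 and Gimap8, as lower. Leaving out each sample gave 0 to 3 members, with 0 without αPD-1 replicate 1 or αPD-1 replicate 3. The 3 without αPD-1 replicate 2 were Gimap4, Gimap5 and Gimap7, and Gimap1 did not pass whichever sample was left out. In T cells other than Tn-like (0) the count of members was 1 at clustering resolution 1.2 and 1 with log-normalized values for clustering, Gimap4 in both. With the replicate block 2 members passed in all T cells, Gimap7 (0.75) and Gimap5 (0.48), and the block turned the sign of Gimap4 in Tcyc-like (-0.0060) and B-like cells (-0.024). The numbers did not pair the samples. No member that reversed its sign passed the test under that alternative, and the cause of these changes was not tested.

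Counts over all genes moved with the alternatives, and the cause was not tested. In T cells other than Tn-like 8 genes were called, against 650 at resolution 0.4, 906 at resolution 1.2, 658 with log-normalized values, 417 with at most 5% mitochondrial UMIs, 190 with no upper limit on genes, 31 with no doublet removal, 241 with no filter on low counts, 52 with DESeq2, 15 with the replicate block, 2 without the Malat1-high clusters and 0 to 35 without 1 sample. The αPD-1 samples held 1049 Tn-like cells, and 749 to 1048 in the other clusterings. In all T cells 2034 genes were called, against 1117 with DESeq2, 825 with a Cd3e UMI, 833 without the Malat1-high clusters, 1141 with no upper limit on genes, 3239 with mixed clusters and 1015 to 2091 without 1 sample. For Tn-like cells no fit was run at resolution 1.2, at 5% mitochondrial UMIs, with no upper limit on genes or without the Malat1-high clusters, since 1 αPD-1 + corin sum of at least 10 cells was left.

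Signs of log2 fold changes turned in 42 fits that kept all samples. At clustering resolution 0.4 these were Gimap3 in T cells (0.0017), Gimap1 in Tn-like (0.21), Gimap3 in Tn-like (0.085), Gimap5 in Tn-like (0.017) and Gimap8 in Tn-like (0.45). Without an upper limit on detected genes these were Gimap3 in T cells (0.031), Gimap3 in CTL-like (-0.042), Gimap5 in CTL-like (-0.27), Gimap8 in CTL-like (-0.17), Gimap1 in Tcyc-like (0.23), Gimap7 in NK-like (-0.044), Gimap9 in NK-like (0.036), Gimap4 in B-like (-0.017) and Gimap6 in endothelial-like (-0.19). With mixed T clusters counted as T cells this was Gimap3 in T cells (0.026). Without the T clusters high in Malat1 this was Gimap3 in T cells other than Tn-like (-0.063). With log-normalized values for clustering these were Gimap1 in Tn-like (0.16), Gimap5 in Tn-like (0.11), Gimap6 in Tn-like (-0.51), Gimap8 in CTL-like (-0.098), Gimap6 in Treg-like (0.078), Gimap9 in NK-like (0.088), Gimap3 in B-like (-0.001) and Gimap4 in B-like (-0.16). With no filter on low counts these were Gimap4 in Tn-like (-0.12), Gimap6 in Tn-like (-0.14), Gimap3 in Treg-like (0.012), Gimap1 in NK-like (0.017), Gimap3 in B-like (-0.13) and Gimap4 in B-like (-0.073). With DESeq2 size factors in edgeR this was Gimap8 in Tn-like (0.069). With DESeq2 this was Gimap8 in Tn-like (0.068). With at most 5% mitochondrial UMIs these were Gimap3 in Treg-like (0.028), Gimap9 in NK-like (0.097) and Gimap3 in B-like (-0.037). In T cells with a Foxp3 UMI these were Gimap3 in Treg-like (0.12) and Gimap8 in Treg-like (0.091). At clustering resolution 1.2 this was Gimap6 in Treg-like (0.0056). With no doublet removal these were Gimap1 in NK-like (0.0078) and Gimap3 in B-like (-0.014).

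Leaving out each sample turned 36 signs, and the lowest and highest log2 fold changes are given for the members concerned. In T cells it ran over Gimap3 -0.083 to 0.011. In T cells other than Tn-like it ran over Gimap3 -0.026 to 0.070, Gimap6 -0.026 to 0.17. In Tn-like cells it ran over Gimap4 -0.21 to 0.33, Gimap6 -0.53 to 0.36, Gimap7 -0.17 to 0.99, Gimap8 -0.57 to 0.30. In CTL-like cells it ran over Gimap3 -0.085 to 0.31, Gimap7 -0.29 to 0.36, Gimap8 -0.19 to 0.28. In Treg-like cells it ran over Gimap3 -0.16 to 0.080, Gimap5 -0.18 to 0.42. In Tcyc-like cells it ran over Gimap3 -0.011 to 0.16, Gimap4 -0.076 to 0.16, Gimap7 -0.11 to 0.47. In NK-like cells it ran over Gimap1 -0.41 to 0.12, Gimap9 -0.57 to 0.065. In B-like cells it ran over Gimap1 -0.59 to 0.37, Gimap3 -0.13 to 0.18, Gimap4 -0.58 to 0.26, Gimap5 -0.58 to 0.61.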

Other observations

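In melanoma-like cells 64 of 148 Gimap UMIs (43.2%) were from Gimap9, which was found in 59 of 1883 cells (3.13%, exact 95% interval 2.39 to 4.02%, median 4613 UMIs per cell). The melanoma-like level of Gimap9 was 5.05, 2.66 and 6.44 CPM in αPD-1 samples and 3.14, 6.82 and 9.06 CPM in αPD-1 + corin samples, and the groups overlapped. Gimap4 and Gimap6 had a UMI in 0.797% and 0.956% of the same cells. In fibroblast-like cells Gimap6 (3.03% of cells), Gimap9 (2.83%) and Gimap4 (2.73%) were found at close shares, at a median of 7423 UMIs. Gimap6 gave more UMIs than Gimap9 in dendritic-like (687 against 226), monocyte/macrophage-like (597 against 237) and neutrophil-like cells (593 against 200). In the Rgs5 cells of the endothelial-like cluster, 20.0% (10.8 to 32.3%) had a Gimap9 UMI, against 20.4% (13.1 to 29.5%) of the cells with Pecam1 or Cdh5. These values were singled out after they were seen.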
